A study of Mus musculus with 5 samples.

Results

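Pancreatic acinar cells make the enzymes that digest dietary fat and colipase, a helper protein. The transcripts of 6 such genes are described here: Pnlip, Pnliprp1, Pnliprp2, Clps (colipase), Cel and Pla2g1b. They were chosen by gene symbol, and all 6 were found among the 23284 symbols of each count table. The RNA came from primary acinar cells of 8-week-old C57BL/6 mice, released from minced pancreas by digestion and left to recover in medium with serum before extraction. Controls were p48-Cre mice (2 libraries), and knockouts were Arid1afl/fl;p48-Cre mice (3 libraries). Both groups carry Cre recombinase under p48 (Ptf1a), a gene of pancreatic progenitors and acinar cells, so the floxed Arid1a alleles are the labelled difference between them. Arid1a encodes a DNA-binding subunit of SWI/SNF chromatin remodelling complexes. The labels number the libraries and name no animals, so p-values measure only how these libraries vary, which can be technical.

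Fat digestion in the gut needs several secreted proteins that act together. Pancreatic triglyceride lipase, encoded by Pnlip, cuts triglycerides, but bile salts push it off the surface of fat droplets. Colipase, the small protein encoded by Clps, binds the lipase and anchors it there. Pnliprp1 and Pnliprp2 encode relatives of the lipase, of which the first has little known activity on triglycerides and the latter also cuts phospholipids and galactolipids. Cel encodes bile salt-stimulated carboxyl ester lipase, which works without colipase on cholesteryl esters, vitamin esters and other fats. Pla2g1b encodes the pancreatic phospholipase A2, which releases fatty acids from phospholipids and, like colipase, is activated by trypsin.

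Levels are given as CPM, counts scaled to a library's total, here without Rn45s, the ribosomal RNA precursor, and Lars2, whose share moved with it. Rn45s took 72.6% and 82.2% of the deposited counts of the controls and 6.78% to 10.9% of those of the knockouts, and Lars2 4.23% and 5.61% against 0.535% to 0.926%. What remained was 67514 and 72006 control counts against 3155357 to 3568906 knockout counts, so that 1 count equals 14.8 and 13.9 CPM in the controls and at most 0.317 CPM in a knockout. Depth and Rn45s share divided the libraries along the lines of genotype, so that the effects of genotype and of library quality cannot be told apart here. Arid1a, the targeted gene, gave 0 and 3 control counts and 44, 121 and 42 knockout counts, or 21.5 and 20.6 CPM pooled by group. Whole-gene counts include exons that a floxed allele keeps, and the labels are therefore not checked by them. Ctrb1 and Cpa1, chymotrypsinogen and a carboxypeptidase of acinar cells, were abundant in every library, at 139016 to 233072 CPM for Ctrb1 and 19098 to 37136 CPM for Cpa1, and the sum of 7 acinar markers was 238232 and 267339 CPM against 303806 to 348381 CPM in knockout libraries. Among these, Amy2a5 was at 0 in all 5 libraries, and Ptf1a was at 0 in both controls and had 85, 94 and 14 counts in knockout libraries. In bulk RNA, fewer acinar cells and less RNA per acinar cell cannot be told apart.

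The 6 genes together held a similar part of the library in both groups, but its make-up differed. In the controls 9.61% and 11.9% of all counts came from them, and in the knockouts 8.11%, 8.69% and 11.9%, so the groups overlapped. Lower in the knockouts were Cel and Pnlip, while Pla2g1b, Clps and Pnliprp2 were higher, and these 5 genes did not overlap between groups. That is 5 of 6, against 46.8% of the 8291 genes tested and 46% of the 300 with a mean of at least 100 CPM. By edgeR's quasi-likelihood test, with Benjamini-Hochberg adjustment over all genes and a call at an adjusted p under 0.05, 1 of the 6 was called lower, Cel, against 1.6% of tested genes, and 0 were called higher, against 0.193%. Called in either direction was 1 of the 6, against 1.8%. At an unadjusted p under 0.05, edgeR had 1 higher (Pla2g1b) and 2 lower (Cel and Pnlip) of the 6, and 1072 of all 8291 genes. After adjustment DESeq2 called 4 of the 6 higher and 0 lower, and over all genes 610 higher and 301 lower. With limma-voom 0 of the 6 were called in either direction, and over all genes 0 higher and 43 lower. The median log2 fold change of the 6 was 0.63, and that of all tested genes was 0.22. The latter depends on genes with no control count, 33.5% of those tested. With every group sum under 3 counts set to 3, the median log2 ratios of pooled CPM were 0.63 and -1.44.

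**Figure D1:**
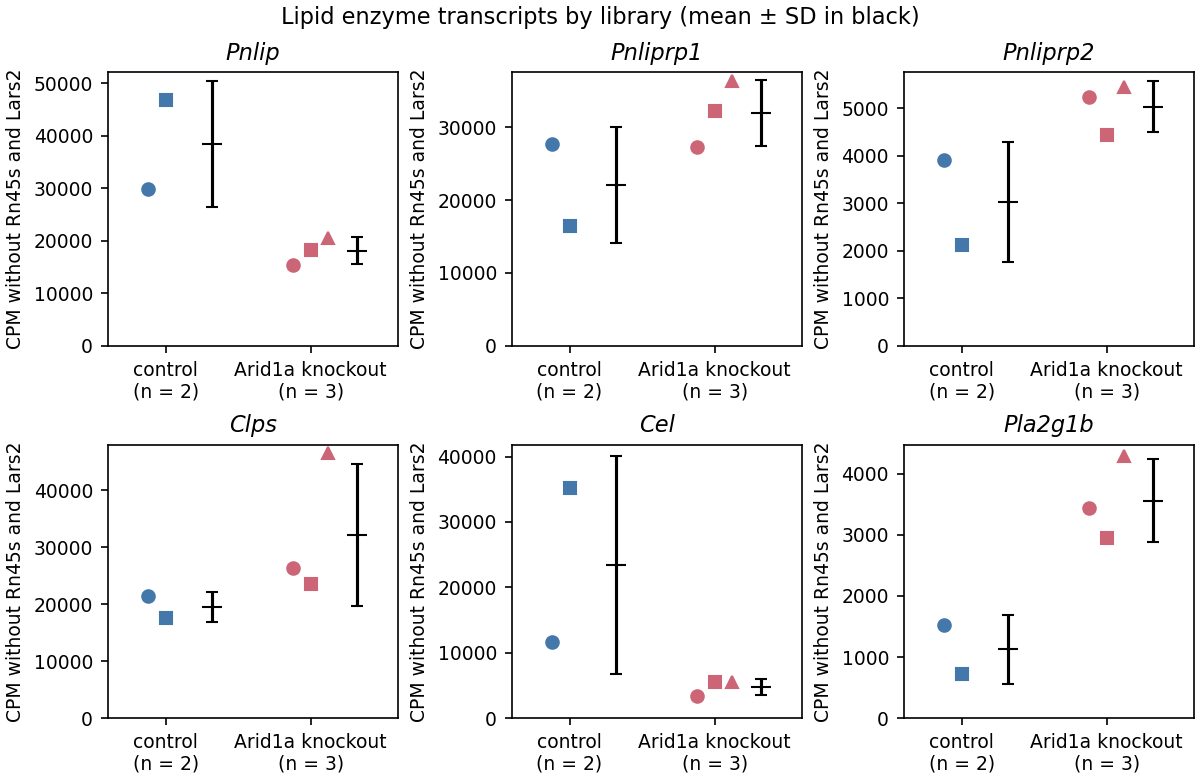
CPM of the 6 transcripts in each library, with a panel per gene, blue points for the 2 control libraries, red points for the 3 knockout libraries (circle, square and triangle for replicates 1, 2 and 3) and the mean ± SD of each group in black. Cel and Pnlip lie lower in all 3 knockouts than in both controls, Pnliprp1 overlaps, and the other 3 genes lie higher.

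Cel, the lipase that does not use colipase, fell in the knockouts on this scale. Control levels were 11657 and 35149.8 CPM (787 and 2531 counts), and knockout levels were 3429, 5494 and 5580.1 CPM. Both controls lay above all 3 knockouts, and control 2 stood far above control 1, by 3.02-fold. The controls averaged 23403 ± 16612 CPM (SD, n = 2), 4.84-fold above the knockout mean of 4834 ± 1218 CPM (SD, n = 3). The log2 fold change was -2.28 ± 0.54 (SE), with an adjusted p of 0.0055 by edgeR, and it was lower in 3 of 3 knockout libraries. Without control 2 it was -1.27 (adjusted p = 0.579, edgeR) and without knockout 1 it was -2.08 (adjusted p = 0.577, edgeR), so the call rests on both libraries. The call was also lost at a similar value with upper quartile factors (-2.19) and limma-voom (-2.10), and at a smaller one with TMM factors (-0.14 on all rows, -0.10 without Rn45s and Lars2), RLE factors (-0.56) and DESeq2 (-0.56). On full deposited totals the value was 0.32. Over all alternatives the adjusted p ran from 7.4e-05 to 0.951.

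Pnlip, the main triglyceride lipase, lay lower in the knockouts too, without passing the test. It stood at 29919.7 and 46871 CPM in control libraries, and at 15408, 18322 and 20583 CPM in knockout libraries. No knockout reached the lower control, the nearest pair of libraries being 1.45-fold apart. The control mean was 38395 ± 11986 CPM (SD, n = 2), and the knockout mean was 18104 ± 2594 CPM (SD, n = 3). The log2 fold change of -1.08 ± 0.47 (SE) had an adjusted p of 0.261 by edgeR. Its sign turned with TMM or RLE factors, with DESeq2 and on full deposited totals.

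The genes of the lipase family, Pnlip, Pnliprp1 and Pnliprp2, follow each other on chromosome 19 with no other protein-coding gene between them in RefSeq's GRCm38.p6 annotation, and of these Pnlip was the one with a lower mean in the knockouts. Pnliprp1 measured 27683 and 16388 CPM in control libraries, and 27249.8, 32143 and 36263 CPM in knockout libraries. Control 1 lay inside the range of the knockouts, and control 2 lay below it. From a control mean of 22035 ± 7987 CPM (SD, n = 2) to a knockout mean of 31885 ± 4512 CPM (SD, n = 3), the log2 fold change was 0.53 ± 0.48 (SE), at an adjusted p of 0.589 (edgeR). It was 0.96 without control 1 and 0.20 without control 2. Pnliprp2, the relative that also acts on polar lipids, measured 3910.3 and 2125 CPM in control libraries, and 5230.5, 4426 and 5432 CPM in knockout libraries. Its groups were separate by a narrow margin of 1.13-fold. Its means were 3018 ± 1263 CPM (SD, n = 2) and 5029.5 ± 533 CPM (SD, n = 3), and the log2 fold change was 0.74 ± 0.66 (SE; adjusted p = 0.589, edgeR), or 1.24 without control 1 and 0.36 without control 2.

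Within a library, a ratio of counts of 2 genes does not depend on any scaling. Of Pnlip to Pnliprp1 the control ratios were 1.08 and 2.86, and the knockout ratios were 0.565, 0.570 and 0.568. The 3 knockout libraries thus held these neighbouring genes at nearly the same ratio, while each control held more Pnlip than Pnliprp1. Of Pnliprp1 to Pnliprp2 the control ratios were 7.08 and 7.71, and the knockout ratios were 5.21, 7.26 and 6.68, so that here control 1 lay inside the knockout range. Both ratios were picked after their values were seen and were not tested.

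The 250 bases before the start of Cel and Pnlip, the genes that lay lower, and of Pnliprp1, the neighbour of Pnlip that did not, are shown because the balance of these genes within a library, which no scaling touches, differed between the groups. The build is later than the mm9 of the files, so no count is placed on these coordinates. Sequences are RefSeq's for build GRCm38.p6, matched by symbol, which found 5 of the 6 genes (not Clps). They lie at chr2:28563404-28563653 on the minus strand for Cel, and on the plus strand at chr19:58670115-58670364 for Pnlip and chr19:58728637-58728886 for Pnliprp1. Each is written 5′ to 3′ on the gene's strand, and capitals mark matches on either strand to TTCCCA, the core letters bound by Rbpj and Rbpjl in the acinar PTF1 complex, CACCTG, an E-box of the type bound by Ptf1a, AAGGTCA, the core of sites for nuclear receptors such as Nr5a2, and TATAAA, the TATA box.
Cel: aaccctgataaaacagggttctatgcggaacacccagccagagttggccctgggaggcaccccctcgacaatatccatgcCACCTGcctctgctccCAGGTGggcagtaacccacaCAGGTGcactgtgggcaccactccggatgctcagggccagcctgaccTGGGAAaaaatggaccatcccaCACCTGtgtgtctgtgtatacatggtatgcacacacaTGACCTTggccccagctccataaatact
Pnlip: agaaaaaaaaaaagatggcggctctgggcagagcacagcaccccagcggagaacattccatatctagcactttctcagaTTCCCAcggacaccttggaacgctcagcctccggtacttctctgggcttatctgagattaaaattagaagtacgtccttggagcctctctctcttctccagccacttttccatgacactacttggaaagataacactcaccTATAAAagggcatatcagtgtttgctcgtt
Pnliprp1: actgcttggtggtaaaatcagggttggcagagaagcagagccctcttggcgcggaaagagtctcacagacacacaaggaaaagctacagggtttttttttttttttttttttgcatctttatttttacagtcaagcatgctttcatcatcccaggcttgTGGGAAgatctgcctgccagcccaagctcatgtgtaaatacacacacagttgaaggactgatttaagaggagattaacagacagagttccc
The Cel window held CACCTG 4 times over both strands, TTCCCA 1 time on the reverse strand from base 87 before the start, and AAGGTCA on the reverse strand from base 28. The Pnlip window held TTCCCA from base 171 and TATAAA from base 30, and the Pnliprp1 window held TTCCCA on the reverse strand from base 91. Of the windows not shown, that of Pnliprp2 held CACCTG 1 time and that of Pla2g1b held none of the 4 motifs. No matches overlapped. Of all 32851 RefSeq windows of this length, 21.6% held TTCCCA, 17.2% CACCTG, 4.08% AAGGTCA and 12.4% TATAAA, so TTCCCA and CACCTG are common letters. These shares are for at least 1 match on either strand. The share of windows with CACCTG 4 times was not counted. These are matches of letters and not measured binding.

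Clps, which encodes colipase, measured 21403 and 17665 CPM in control libraries, and 26348, 23567 and 46558 CPM in knockout libraries. All 3 knockouts lay above both controls, by as little as 1.1-fold for knockout 2, and knockout 3 stood apart from the other knockouts. The means were 19534 ± 2643 CPM (SD, n = 2) and 32158 ± 12548 CPM (SD, n = 3). The log2 fold change was 0.72 ± 0.49 (SE; adjusted p = 0.545, edgeR), and without knockout 3 it was 0.35.

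The ratio of Clps to Pnlip counts, colipase RNA set against RNA of the lipase it serves, was higher in every knockout library. Control libraries had ratios of 0.715 and 0.377, and knockout libraries 1.71, 1.29 and 2.26. Pnlip thus gave more counts than Clps in both controls and fewer in all 3 knockouts. This crossing of 1 holds for raw counts of transcripts of 1487 bases (Pnlip) and 611 bases (Clps). Per kilobase, Clps exceeded Pnlip in control 1 as well (35029.5 against 20120.8 CPM) but not in control 2 (28911.9 against 31520.6 CPM). On the log2 scale the control mean was -0.95 ± 0.65 (SD, n = 2) and the knockout mean 0.77 ± 0.41 (SD, n = 3), a difference of 1.72 or 3.29-fold. The gap between the nearest control and knockout was 0.85 on the log2 scale, about as wide as the range within the controls, 0.92, or within the knockouts, 0.81. A two-sided exact permutation test over the 5 libraries gave p = 0.1, the smallest that 10 splits of 2 against 3 allow, so the design cannot reach 0.05. Adjusted over the 3 colipase ratios compared, that exact p was 0.15.

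Set against all 3 lipase family genes together, colipase differed less. The ratio of Clps to summed Pnlip, Pnliprp1 and Pnliprp2 counts was 0.348 and 0.27 in control libraries, and 0.55, 0.429 and 0.748 in knockout libraries. The groups did not overlap, and the log2 difference of 0.87 had an exact permutation p of 0.2 (two-sided, adjusted 0.2). Against Cel, which needs no colipase, the control ratios were 1.84 and 0.503, and the knockout ratios were 7.68, 4.29 and 8.34. This log2 difference was 2.76 (exact permutation p = 0.1, two-sided, adjusted 0.15), and it was 1.82 without control 2 and 3.69 without control 1. Against Pnliprp1 the ratio of Clps counts overlapped, at 0.773 and 1.08 for controls against 0.967, 0.733 and 1.28 for knockouts, a ratio picked after its values were seen and not tested.

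**Figure D2:**
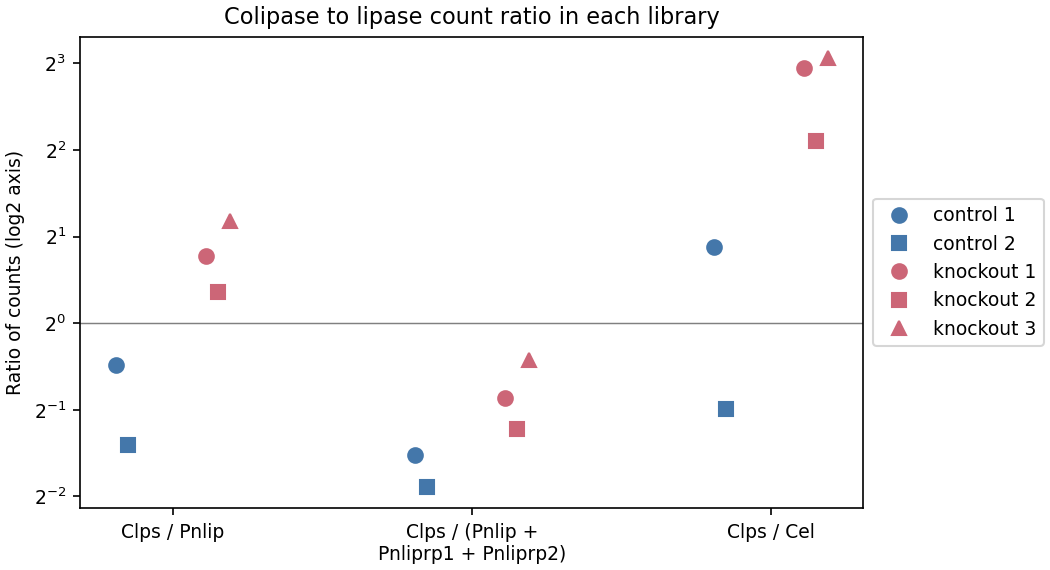
Ratio of Clps counts to the counts of Pnlip, of the summed lipase family and of Cel in each library, on a log2 axis with a line at a ratio of 1 (blue for controls, red for knockouts). For Clps over Pnlip the controls lie below the line, at 0.715 and 0.377, and the knockouts above it, from 1.29 to 2.26.

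Pla2g1b, the secreted phospholipase A2, had the highest ratio of knockout to control mean of the 6, 3.17, but did not pass the test. Its counts in the controls were few, 103 and 52, which put it at 1526 CPM (exact 95% binomial interval for counting error alone 1245 to 1849.9) and 722 CPM (539 to 947). The knockouts had 3443, 2945 and 4289.5 CPM. Every knockout was at least 1.93-fold above the higher control. The means were 1124 ± 568 CPM (SD, n = 2) and 3559 ± 679.6 CPM (SD, n = 3), and the log2 fold change was 1.66 ± 0.75 (SE; adjusted p = 0.29, edgeR). Without control 1 this value was 2.30 and without control 2 it was 1.22. Pla2g1b was called higher by DESeq2 (3.51, adjusted p = 0.00413) and by edgeR on full deposited totals (3.88, adjusted p = 0.0193).

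Shares of the 6 genes' counts need no library total, but they sum to 100%, so that lower shares of some genes raise those of the others. In the controls Pnlip took 31.1% and 39.4% of the counts of the 6 genes and in the knockouts 17.3% to 21.1%. Cel took 12.1% and 29.6% in the controls and 4.23% to 6.32% in the knockouts. Clps took 22.3% and 14.9% against 27.1% to 39.2%, and Pla2g1b 1.59% and 0.607% against 3.39% to 4.25%. The shares of Pnliprp1, 28.8% and 13.8% in the controls and 30.5% to 37% in the knockouts, did not overlap although its CPM did, and those of Pnliprp2 lay narrowly apart, at 4.07% and 1.79% against 4.58% to 6.45%. The exact 95% binomial interval (Clopper-Pearson) was 28.6% to 30.5% for Cel in control 2 and 11.3% to 12.9% in control 1, so counting error was smaller than the gap between the controls. PCR reads without molecular identifiers are not independent molecules, and the intervals cover counting error only.

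**Figure D3:**
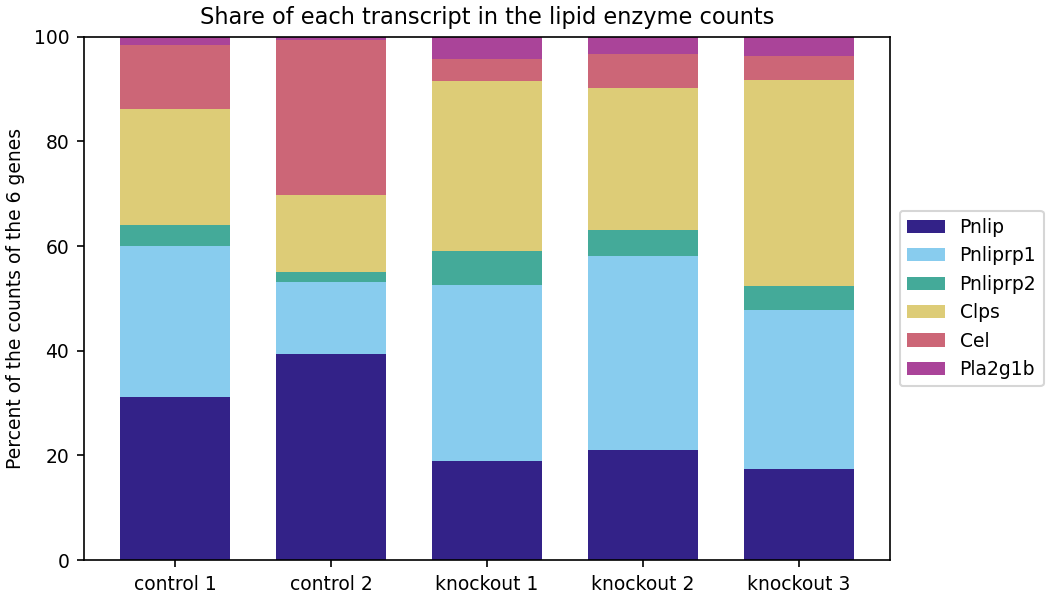
Stacked bars of the percent of the counts of the 6 genes that each gene took, for the 2 control and 3 knockout libraries. The Cel part shrinks from 12.1% and 29.6% in the controls to 4.23% to 6.32% in the knockouts, and the Clps part reaches 39.2% in knockout 3.

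Per kilobase of transcript the order of the genes was the same in the 3 knockout libraries and differed between the controls. Lengths are those of the longest protein-coding transcript in GENCODE M21 (GRCm38), 2063 bases for Cel, 1619 for Pnliprp1, 1572 for Pnliprp2, 1487 for Pnlip, 611 for Clps and 557 for Pla2g1b. In the knockouts Clps led with 52631 ± 20538 CPM per kilobase (SD, n = 3), then Pnliprp1 with 19694 ± 2787, Pnlip with 12175 ± 1745, Pla2g1b with 6390.2 ± 1220.02, Pnliprp2 with 3199 ± 339 and Cel with 2343 ± 590.4. No neighbours in that order overlapped over the 3 libraries. In the controls Clps and Pnlip overlapped, with 31971 ± 4326 and 25821 ± 8061 CPM per kilobase (SD, n = 2), as did Pnliprp1 with Cel, and Pla2g1b with Pnliprp2. Cel had 11344 ± 8052 CPM per kilobase there, above Pla2g1b and Pnliprp2 in both controls, and was last in every knockout.

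Measures of the libraries moved with these differences. In all 6 genes control 2, where Rn45s took 82.2% of all counts, lay farther from the knockout mean than control 1, where it took 72.6%. This compares only 2 libraries, and control 2 was the deeper one, with 72006 counts left against 67514. Among the knockouts, knockout 3 had the lowest Rn45s share, 6.78%, and the highest CPM of all 6 genes. For Cel and Pnlip this is opposite to the order between the groups, where the lower Rn45s share went with lower CPM. Knockout 2, with the highest share (10.9%), lay above knockout 1 (8.5%) in Cel, Pnlip and Pnliprp1. It lay below knockout 1 in Pnliprp2, Clps and Pla2g1b. For Cel the controls were 7.27-fold and 2.41-fold above the knockout mean, and for Pla2g1b the knockout mean was 4.93-fold and 2.33-fold above the controls. Transcript length moved with the fold change too. Among 278 tested genes averaging 100 CPM or more with a matched length (92.7% of 300), the median log2 fold change was 0.69 for the 62 genes under 1000 bases, 0.41 for the 43 between that and 1500 bases, and -0.08 for the 173 longer ones. The longest of the 6, Cel, had the lowest log2 fold change and the shortest, Pla2g1b, the highest, whereas Pnlip, Pnliprp1 and Pnliprp2 are close in length and had log2 fold changes of -1.08, 0.53 and 0.74. The part of Rn45s, depth and length in the results was not tested.

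**Figure D4:**
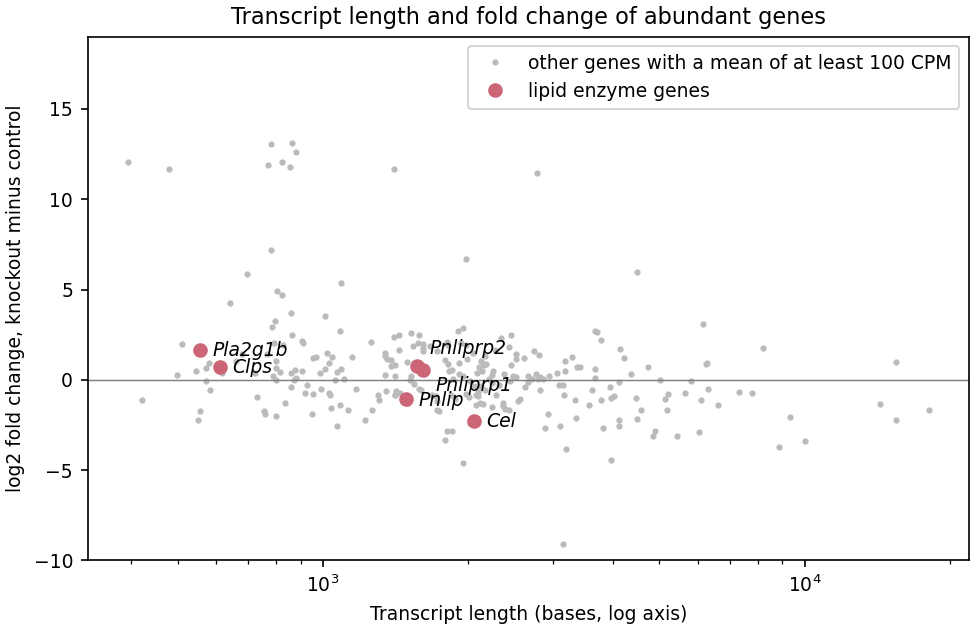
Transcript length (bases, log axis) against the log2 fold change of knockout minus control for tested genes averaging 100 CPM or more, with the 6 genes of the set in red. Pla2g1b and Clps lie at the short end above 0, and Cel, the longest of the 6, lies at -2.28.

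Of other cell types, 7 duct markers summed to 755 and 653 CPM in control libraries against 271 to 1164 CPM in knockout libraries, and 8 islet markers to 104 and 680.5 CPM against 176 to 927 CPM. The 8 leukocyte markers summed to 163 and 27.8 CPM against 91.8 to 408 CPM, and the 6 fibroblast markers to 14.8 and 167 CPM against 20.3 to 112 CPM. The 7 adipocyte markers, of cells that use lipases of their own, summed to 44.4 and 347 CPM against 8.97 to 131 CPM. Adipoq, Plin1, Fabp4, Lep and Retn were at 0 in both controls. Of the 3 adipocyte markers tested, edgeR called 1 lower, Cidec, with 0 and 25 control counts, against 1.6% of all tested genes. The 5 endothelial markers were at 0 in both controls, against 21.2 to 108 CPM, and the 5 erythroid markers at 0 in every library. Apart from the endothelial sums, the groups overlapped, and a count of 0 in a control allows up to 3 counts, which is 44.4 and 41.7 CPM there. The part of these cell types in the results was not tested.

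The scale decides how each fold change reads. With TMM factors on all rows the log2 fold change of a typical gene rose by 1.49, with TMM factors without Rn45s and Lars2 by 1.54, with RLE factors by 1.07 and on full deposited totals by 2.2. It rose by 0.03 with upper quartile factors and fell by 0.07 on the total of digestive enzymes. A change of scale moves all genes of a library alike but differs between libraries, so the 6 genes need not shift by these amounts. Cel went from -2.28 to -2.19 with upper quartile factors and to -0.14 with TMM factors on all rows. Pla2g1b went from 1.66 to 2.27 and to 3.84. The order of the 6 genes stayed nearly fixed. Over all genes, 16 were called higher and 133 lower. That split was 147 and 71 with TMM factors without Rn45s and Lars2, 141 and 17 on full deposited totals, 21 and 81 with RLE factors, and 11 and 354 with upper quartile factors. DESeq2, which changes the test as well as the scale, gave the 610 and 301 above.

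**Figure D5:**
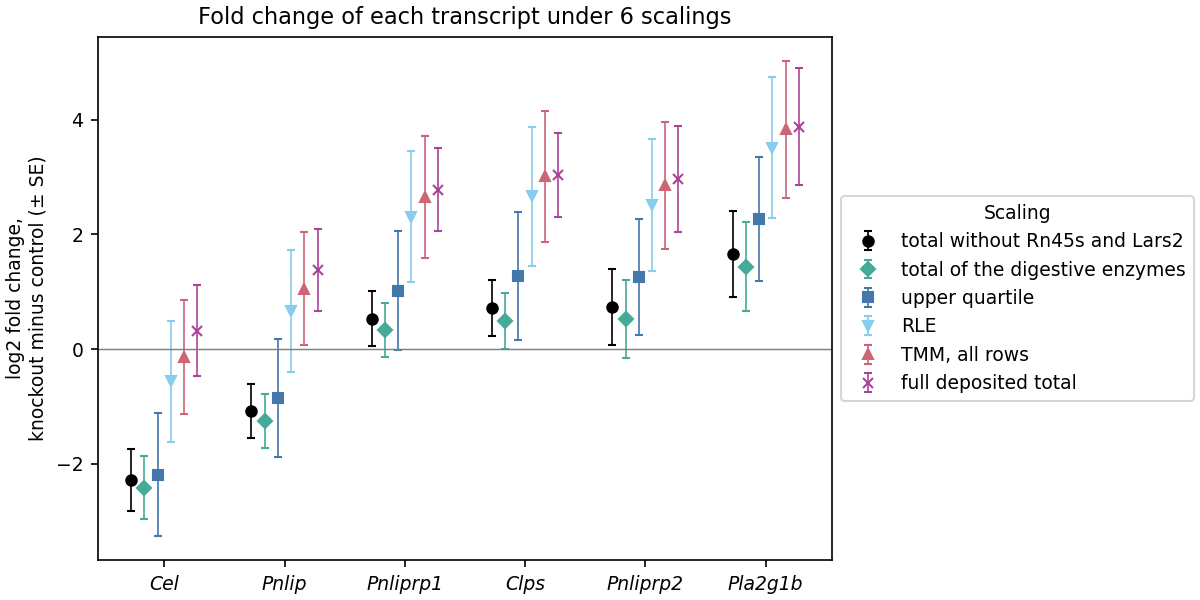
Log2 fold change ± SE (edgeR) of each gene, knockout minus control, under 6 scalings of the libraries, with a line at 0. Cel runs from -2.41 to 0.32 and Pnlip from -1.25 to 1.38, and the other 4 genes stay above 0.

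Other secreted digestive enzymes, listed for comparison, gave calls in both directions. Of 20 tested members, edgeR called 3 higher, against 0.193% of all tested genes, and 1 lower, against 1.6%, with a median log2 fold change of 0.51. DESeq2 called 10 higher and 0 lower (610 and 301 of all 8291), and limma-voom 0 higher and 1 lower (0 and 43 of all). Cela2a, an elastase, fell from 41814 and 62814 CPM to 7869, 9560.4 and 9341 CPM (log2 fold change -2.55, adjusted p = 7.53e-05, edgeR). Try10, a trypsinogen, rose from 237 and 153 CPM to 2646, 1418 and 3510.5 CPM (adjusted p = 0.00884, edgeR). Prss3 and Amy1 were the others. Trypsinogens and amylases have near-identical copies, and sharing of reads between them was not checked, so their counts are uncertain. Together these enzymes took 49.8% and 53.9% of the control libraries and 63.6%, 53.6% and 68.3% of the knockout libraries, with overlap. Of the counts of these enzymes and the 6 lipid genes together, the 6 made up 16.2% and 18.1% in control libraries. In knockout libraries they made up 11.3%, 13.9% and 14.8%, with no overlap.

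Lipases that act inside cells, in the circulation or in other organs were scarce. Of 24 listed, 15 had no control count and 13 were tested. Calls numbered 0 by edgeR (149 of all 8291), 0 by DESeq2 (610 higher and 301 lower of all) and 0 by limma-voom (43 lower of all). At an unadjusted p under 0.05 edgeR had 0 higher and 1 lower of these lipases (1072 of all). Their median log2 ratio of pooled CPM, with every group sum under 3 counts set to 3, was -1.49, against -1.44 for all tested genes. The fitted log2 fold changes, which for genes at 0 depend on a prior count, had medians of 0.69 and 0.22, of the opposite sign. Lpl, lipoprotein lipase of blood vessels, had 548 and 194 CPM in control libraries against 70.7, 85.7 and 79.5 CPM in knockout libraries, which did not pass (adjusted p = 0.328, edgeR). The controls lay above the knockouts on 37 and 14 counts. Lmf2, of the lipase maturation factor family, had 29.6 and 69.4 CPM in control libraries against 24.7, 45.7 and 14.9 CPM in knockout libraries, with overlap.

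Phospholipases A2 other than Pla2g1b were near the floor, with 15 and 23 counts in all in the controls and 3 of 18 tested. None was called by edgeR (149 of all 8291) or limma-voom (43 lower of all). At an unadjusted p under 0.05 edgeR had 1 higher and 1 lower (1072 of all). DESeq2 called 1 of these phospholipases higher (610 of all). Their median log2 ratio at the floor was -2.24. Pla2g16, an intracellular phospholipase, had 14.8 and 222 CPM in control libraries against 7.92, 21.9 and 4.19 CPM in knockout libraries. Pla2g6, a calcium-independent one, had 14.8 and 97.2 CPM against 6.34, 15.1 and 14.3 CPM. For both genes control 1 held a single count and lay among the knockouts.

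The acinar transcription factors that drive enzyme genes gave too few control counts for a comparison. Of 10, 9 were tested and 0 were called by edgeR (149 of all 8291) or limma-voom (43 lower of all). At an unadjusted p under 0.05 edgeR had 0 higher and 1 lower (1072 of all). DESeq2 called 1 of these factors in each direction (610 higher and 301 lower of all). Their median log2 ratio at the floor was -0.94, opposite in sign to the median fitted log2 fold change of 5.92. Xbp1, of the secretory programme, had 44.4 and 153 CPM in control libraries against 231, 293 and 78.3 CPM in knockout libraries. Rbpjl, the acinar subunit of the PTF1 complex, had 148 and 0 CPM (10 and 0 counts) against 76.7, 137 and 172 CPM. Both genes overlapped between groups. Of 8 receptors that drive or tune enzyme secretion and synthesis, 3 were tested. Calls numbered 0 by edgeR (149 of all 8291) and 0 by limma-voom (43 lower of all). At an unadjusted p under 0.05 edgeR had 0 higher and 1 lower (1072 of all). DESeq2 called 2 of these receptors higher (610 of all). Their median log2 ratio at the floor was 0.34. Cckar, the cholecystokinin receptor, had 29.6 and 0 CPM in control libraries against 122, 216 and 34.1 CPM in knockout libraries. Chrm1, a muscarinic acetylcholine receptor, had 133 and 0 CPM (9 and 0 counts) against 2.54, 5.88 and 6.88 CPM, with overlap.

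The genes with the most similar profiles were sought among 127 genes outside the set with at least 10 counts in every library, by the root mean square difference of centred log2 CPM over the 5 libraries. Of the pairs within the 6, Pnliprp1 with Pnliprp2 had the smallest difference, 0.20, and Cel with Pla2g1b the largest, 2.08. For Cel the nearest were the mitochondrial import gene Timm13 (0.28), the poly(A)-binding protein gene Pabpc4 (0.41) and Cela2a (0.41). For Pnlip they were the ATP synthase gene Atp5d (0.14), the clathrin adaptor gene Ap2s1 (0.21) and the carboxypeptidase Cpa1 (0.28). For Clps they were the granule protein gene Zg16 (0.23) and the trypsinogens Prss2 (0.25) and Try5 (0.26). Pnliprp1 was nearest to the ribosomal protein genes Rpl32 (0.23) and Rps15 (0.24) and to Zg16 (0.29). Ribosomal protein genes were also nearest to Pnliprp2, namely Rps15 (0.18), Rpl32 (0.21) and Rpl13a (0.25), and Rpl13a (0.26) and Rps15 (0.48) were near to Pla2g1b. The 5 libraries share the split in depth, so these likenesses describe these libraries.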

How the data were processed

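Per the labels' protocols, RNA was extracted from acinar cells with TRIzol and made into libraries with the TruSeq RNA v2 kit after bead capture of mRNA. The deposited files hold raw read counts per gene symbol, 1 library each, without normalization. The submitters' processing notes give build mm9, HTSeq 0.9.1, TopHat2 2.1.1, Cuffdiff 2.2.1.5 and Cuffnorm 2.2.1.2, but not what each did. The kit does not mark strand. For annotation and for reads matching several genes, the steps taken were not given in the sources used here. In GENCODE M21 no 50-base word of a member's longest transcript lay in another gene's transcript, and no other gene's exons overlapped a member's.

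Counts without Rn45s and Lars2 were scaled to their totals. The edgeR 4.0.16 quasi-likelihood test (R 4.3.3, robust, two-sided) was fitted with group as the only term, filterByExpr and no normalization factors on 8291 genes, of which 33.5% had no control count. It was also run on simulated counts with less spread between libraries than the common dispersion fitted here, 0.674. There the changed genes were drawn only from those with a mean of at least 100 CPM, so changes in scarcer genes were not covered. Of the changed genes the test called 8% at a true log2 change of 2 or of -2, 100% at 4 and 82% at -4. A gene that was not called can therefore still differ. SE is the log2 fold change over the root of the F statistic. Colipase ratios were compared by exact permutation over libraries. Alternatives were other scalings, filters, DESeq2 1.42.0, limma 3.58.1 (voom), a replicate block, knockouts thinned to 69760.0 counts and each library left out. A total without the 6 members was added after the data were seen. The members, lists and tests were chosen with earlier results of these data known, and 1 earlier analysis used TMM on all rows. The rule for named genes took the 6 members, the 3 genes nearest to each in profile, the 2 most abundant called members of each list (or, with none called, the 2 most abundant), Arid1a, Rn45s, Lars2, Ctrb1 and Cpa1. Prss3, Amy1, Amy2a5, Ptf1a and the cell type markers named were picked beside it. One gene that the rule names is not reported here.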

Additional observations from a re-analysis of the deposited data

How the results depend on the processing

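The call of Cel as the 1 lower gene of the 6 held under 9 of 19 alternatives. No gene of the 6 was called lower (0) with TMM factors on all rows or without Rn45s and Lars2, with RLE or upper quartile factors, on full deposited totals, with DESeq2, limma-voom or the replicate block, and with a library left out the number ran from 0 to 1. The log2 fold change of Cel, -2.28, was then -2.19 with upper quartile factors, -2.10 with limma-voom and -2.22 with the block, but -0.14 and -0.10 with TMM and -0.56 with RLE factors and with DESeq2. Called higher were 3 on full deposited totals (Pnliprp1, Clps and Pla2g1b) and 4 with DESeq2 (these and Pnliprp2), and none (0) under the other 17 alternatives. Reversed in sign were Cel on full deposited totals (0.32) and Pnlip with TMM factors on all rows (1.06) or without Rn45s and Lars2 (1.10), RLE factors (0.66), full deposited totals (1.38) and DESeq2 (0.66), each a change of scale.

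Over all genes the counts of 16 higher and 133 lower became 5 and 27 with TMM on all rows, 147 and 71 with TMM without Rn45s and Lars2, 21 and 81 with RLE, 11 and 354 with upper quartile factors, 141 and 17 on full deposited totals, 8 and 62 on the total of digestive enzymes, 19 and 898 without a filter, 19 and 388 with 1 CPM in 2 libraries, 18 and 17 among genes of at least 100 CPM, 610 and 301 with DESeq2, 0 and 43 with limma-voom, and 18 and 20 with thinned knockouts. Leaving out a library gave 0 to 19 higher and 4 to 378 lower. The cause was not tested.

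For the colipase ratios the groups do not overlap, which fixes their sign when a library is left out. With a library left out the log2 difference ran from 1.25 to 2.18 against Pnlip, 0.66 to 1.06 against the summed lipases and 1.82 to 3.69 against Cel, lowest without control 2 for Pnlip and Cel.

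The groups share replicate numbers, and the labels do not say whether these stand for pairs. Same-numbered libraries deviated from their group means with correlations of -0.0334 and -0.0131 over 300 genes. The deviations of 2 controls mirror each other, so these values cannot decide whether libraries were paired. With the replicate block edgeR called 4 genes higher and 5 lower, the log2 fold change of Cel was -2.22 (adjusted p = 0.113, edgeR), and the log2 difference of Clps to Pnlip was 1.51. Control depth limits the genes near the floor of 3 counts.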
